A study of Gallus gallus with 9 samples.

Results

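The data describe 6 transcription factor genes of the anterior embryo in chick single-cell RNA sequencing: OTX2, HESX1, SIX3, RAX, FEZF2 and PAX6. They were taken by symbol from the feature lists of the filtered matrices, where they are 6 of 16880 genes, 4441 of them listed by identifier alone. The identifiers in the files are ENSGALG00000034889 for OTX2, ENSGALG00000005506 for HESX1, ENSGALG00000032259 for SIX3, ENSGALG00000033279 for RAX, ENSGALG00000007184 for FEZF2 and ENSGALG00000012123 for PAX6. Each gene was found once, and all 6 passed the filter on low counts in every test reported here.

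In vertebrate embryos the front of the neural plate is set apart from the back while gastrulation ends, by signals from the underlying endoderm and axial mesendoderm that keep Wnt and BMP activity low. The responding cells switch on a small group of transcription factors. OTX2 is a homeodomain factor required for the forebrain and midbrain, and it is also made by anterior endoderm and the mesendoderm beneath the head. HESX1 is a homeodomain repressor of the anterior neural plate and later of the pituitary primordium. SIX3 is a homeodomain factor that represses Wnt genes in the rostral forebrain and acts in the eye and lens. RAX is a homeodomain factor of the eye field, the region that forms the retina, and FEZF2 is a zinc finger factor of the forebrain primordium. PAX6 carries a paired domain and a homeodomain and acts in the eye, the lens placode, the forebrain and the hindbrain and spinal cord.

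The libraries came from wild type chick embryos (Gallus gallus) with no experimental treatment named, and the labels give each as the whole tissue at the axial level of the midbrain, run on the 10x Genomics platform. The stages were HH5, when gastrulation ends, 1ss, 4ss and 7ss, named after the number of somite pairs, and HH11. There were 2 libraries for each of the first 4 stages and 1 for HH11. The study's methods describe slices pooled from several embryos for the first 4 stages and do not describe the HH11 library, whose title reads H11 and whose age label reads stage 11. The study followed how the ectoderm is patterned between these stages. No label says where the front and back edges of a slice lay at each stage, so a shift of the dissected band and a change in a gene's level cannot be told apart. Likewise, in sums over a library, fewer cells of a type and less RNA per cell cannot be told apart.

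Levels are in CPM, the UMIs of a gene per 1000000 UMIs of the same library or group of cells, where a UMI is a tag that counts each captured RNA molecule once. The filtered matrices held 5535 to 23489 barcodes and 11104738 to 89386898 UMIs per library, with a median of 1384 to 5140 UMIs per barcode. Libraries shared between 7 and 115 cell barcodes, at most 0.693% of the smaller library. Of the libraries, 2 stood apart in depth or mitochondrial share. HH5 replicate 2 was the shallowest, with 11104738 UMIs against 75772716 in replicate 1. In 4ss replicate 2 the median mitochondrial share was 10.9%, and 9243 of its 18590 cells fell in clusters that were given no name, the largest of which was led by mitochondrial genes. Where a call changed without one of them, that is given beside the result. Clusters without a name also held 25.9% of the cells of HH5 replicate 1, with 4.39% of its UMIs, but 0.57% of the cells of HH5 replicate 2. In the 7ss libraries they held 20.2% and 19.3% of the cells. The germ layers were named from marker lists in clusters made without the 6 genes. At HH5 the ectoderm-like cells had 0 of 13 mesoderm markers at 20 CPM or more, but 2 and 1 of 10 endoderm markers, summed over the list to 329 and 219 CPM. The mesoderm-like cells had 3 and 3 of the 10 (529 and 221 CPM). The endoderm-like cells had 7 and 6 of them (6869 and 1970 CPM) but also 5 and 4 of 6 markers of notochord and axial mesendoderm, so that this group mixed endoderm with axial cells.

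HESX1, SIX3, RAX and FEZF2 shared a course over time: the mean of each was highest at 1ss, lower at 4ss, and lower again at 7ss. The HESX1 level was 277 and 181 CPM in the HH5 libraries, 544 and 312 CPM at 1ss, 179 and 62.8 CPM at 4ss, and 13.9 and 14.8 CPM at 7ss. Both 7ss libraries lay below all 6 libraries of the earlier stages, whereas the HH5 and 4ss libraries were close to touching, at 181 and 179 CPM. SIX3 stood at 220 and 93.6 CPM at HH5, 347 and 194 CPM at 1ss, 122 and 21.8 CPM at 4ss, and 6.37 and 5.83 CPM at 7ss. The 4ss libraries differed 5.62-fold in SIX3, and the higher of them lay within the range of the HH5 libraries. The lower 1ss library, at 194 CPM, also lay below the higher HH5 library, at 220 CPM. RAX was found at 25.0 and 6.84 CPM at HH5, 42.1 and 30.7 CPM at 1ss, 18.2 and 7.29 CPM at 4ss, and 0.85 and 0.90 CPM at 7ss. FEZF2 had 22.4 and 17.0 CPM at HH5, 103 and 48.1 CPM at 1ss, 27.7 and 10.4 CPM at 4ss, and 2.36 and 1.57 CPM at 7ss. For both genes the 1ss libraries were above all others and the 7ss libraries below all others of the first 4 stages.

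The libraries of a stage were far apart for these genes. At 4ss, replicate 1 was higher than replicate 2 for HESX1 (2.86-fold), SIX3, RAX (2.50-fold) and FEZF2 (2.66-fold). At HH5, replicate 1 was 3.66-fold higher for RAX, 2.35-fold for SIX3, 1.53-fold for HESX1 and 1.32-fold for FEZF2. At 1ss it was also the higher, 1.74-fold for HESX1, 1.79-fold for SIX3, 1.37-fold for RAX and 2.14-fold for FEZF2. Summed, these 4 genes had 545 and 299 CPM at HH5, 1035 and 585 CPM at 1ss, 348 and 102 CPM at 4ss, and 23.5 and 23.1 CPM at 7ss. The 7ss libraries were thus nearly alike, and the spread was in the earlier stages.

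OTX2 and PAX6 did not follow that course. OTX2 stayed within a narrow range, with 53.6 and 77.6 CPM at HH5, 69.7 and 60.1 CPM at 1ss, 62.9 and 68.7 CPM at 4ss, and 58.3 and 65.8 CPM at 7ss. The 2 HH5 libraries were the lowest and the highest of these 8, so every stage overlapped with HH5. PAX6 rose: it had 7.64 and 5.31 CPM at HH5, 11.4 and 11.9 CPM at 1ss, 28.5 and 15.6 CPM at 4ss, and 58.0 and 62.5 CPM at 7ss. No stage overlapped with another for PAX6.

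**Figure D1:**
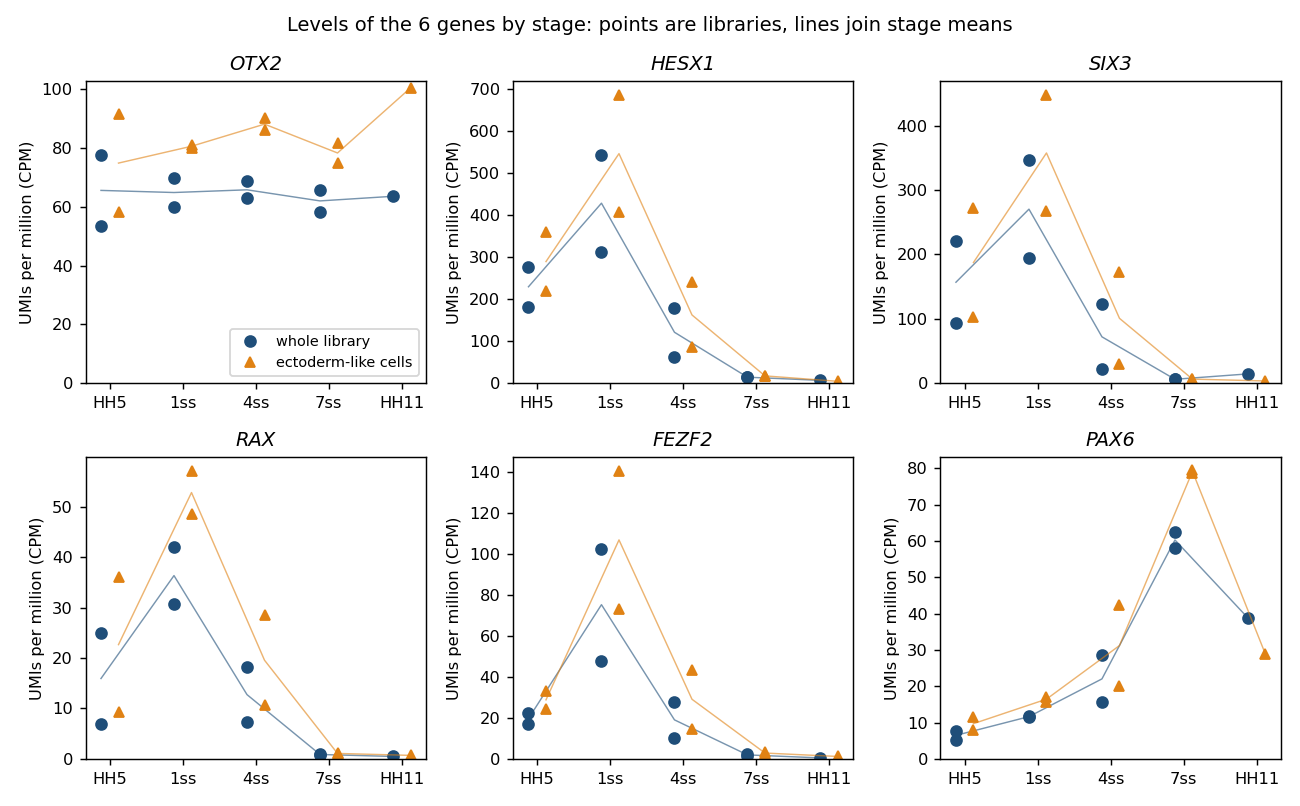
Level of each gene in CPM (vertical axis, from 0) by stage (horizontal axis), with 1 point per library for whole libraries (circles) and for ectoderm-like cells (triangles), and lines through the stage means. HESX1, SIX3, RAX and FEZF2 have their highest stage mean at 1ss and are near 0 on this scale at 7ss, OTX2 in whole libraries stays between 53.6 and 77.6 CPM up to 7ss, and PAX6 climbs to 58.0 and 62.5 CPM at 7ss.

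The stages were compared with HH5 by edgeR's quasi-likelihood test on library sums, with Benjamini-Hochberg adjustment over 13070 genes. At 1ss 0 of the 6 genes were called, against 0.0765% of all genes, although 2 of them, FEZF2 and PAX6, had an unadjusted p under 0.05. FEZF2 was 3.69-fold higher (log2 1.88, SE 0.46, edgeR adjusted p = 0.258), and DESeq2 called this gene alone (log2 1.90, adjusted p = 0.0039). At 4ss PAX6 alone was called, 3.35-fold higher (log2 1.75, SE 0.30, adjusted p = 0.0252), against 0.995% of all genes. That call was lost when any one of the HH5, 1ss or 7ss libraries was left out. Without 4ss replicate 1, HESX1 (log2 -1.79, adjusted p = 0.0254) and SIX3 (log2 -2.77, adjusted p = 0.0207) were called lower at 4ss as well, and in that fit replicate 2, the library with the high mitochondrial share, stood alone for its stage.

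At 7ss 5 of the 6 genes were called against HH5, where 11.8% of all genes were called. HESX1 was 15.9-fold lower (log2 -3.99, SE 0.47, adjusted p = 0.0019). SIX3 was 25.5-fold lower (log2 -4.67, SE 0.74, adjusted p = 0.0057), RAX 18.4-fold lower (log2 -4.20, SE 0.62, adjusted p = 0.0043) and FEZF2 9.92-fold lower (log2 -3.31, SE 0.50, adjusted p = 0.0048). PAX6 was 9.22-fold higher (log2 3.20, SE 0.31, adjusted p = 0.0009). OTX2 was not called (log2 -0.06, SE 0.22, adjusted p = 0.877). Without 7ss replicate 1 the calls of SIX3 and RAX were lost, and without 7ss replicate 2 those of SIX3, RAX and FEZF2, with adjusted p between 0.059 and 0.072 while the changes stayed at log2 -3.00 or below. The shallow HH5 replicate 2 mattered less, since leaving it out kept all 5 calls. When a term set HH5, 1ss and 4ss replicate 1 apart from 4ss replicate 2 and 7ss, a split known from earlier results of these data, PAX6 alone was called (log2 3.95, adjusted p = 0.0068), with adjusted p of 0.062 for HESX1, 0.22 for SIX3, 0.19 for RAX and 0.24 for FEZF2. Only 4ss had libraries on both sides of the split, so the difference between its replicates alone set the term. Beyond that pair, the split and the step to 7ss cannot be told apart.

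The same comparison within ectoderm-like cells asks whether the changes remain once the germ layers are separated. The same 5 genes were called. The ectoderm-like cells came mostly from different clusters at these stages. At HH5 4181 of 5425 cells of replicate 1 lay in a cluster named non-neural-ectoderm-like. In replicate 2, 3496 of 3502 lay in one without a finer class. At 7ss 7613 of 9473 and 7929 of 9747 lay in another without a finer class. The class name depended on the clustering. With the HH5 cells clustered alone, 2213 and 1566 cells of replicate 1 lay in clusters named neural-like. HESX1 had 358 and 220 CPM in ectoderm-like cells at HH5, 685 and 407 CPM at 1ss, 239.5 and 85.1 CPM at 4ss, and 16.9 and 17.9 CPM at 7ss. SIX3 had 272 and 103 CPM, then 447 and 268, 172 and 29.2, and finally 6.52 and 6.15 CPM at the same stages. In both genes the 7ss libraries lay below all others. At 7ss HESX1 was lower by log2 -3.99 (SE 0.46), SIX3 by -4.83 (SE 0.75), RAX by -4.35 (SE 0.63) and FEZF2 by -3.27 (SE 0.50), and PAX6 was higher by 3.06 (SE 0.33), with edgeR adjusted p between 0.0008 and 0.0043. The 5 calls of the 6 genes stand against 13.2% of the 12202 genes tested. With the term for the split of the libraries PAX6 alone stayed called (log2 3.99, adjusted p = 0.0036), and the adjusted p was 0.052 for HESX1, 0.20 for SIX3, 0.17 for RAX and 0.25 for FEZF2. OTX2 had 58.3 and 91.5 CPM in ectoderm-like cells at HH5 and 74.8 and 81.9 CPM at 7ss, values that overlapped, with a difference of log2 0.14 (SE 0.24, adjusted p = 0.723).

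At 1ss and 4ss edgeR called 0 of the 6 genes in ectoderm-like cells, against 0.0410% and 0.615% of all genes. At 1ss FEZF2 and PAX6 had an unadjusted p under 0.05, and DESeq2 called FEZF2 (log2 1.85, adjusted p = 0.0041). At 4ss PAX6 had an unadjusted p under 0.05 (log2 1.67, SE 0.32, edgeR adjusted p = 0.054), and DESeq2 called it. FEZF2, with 33.2 and 24.5 CPM at HH5, reached 141 and 73.4 CPM at 1ss, so that HH5 and 1ss did not overlap even though edgeR did not call the difference. At 4ss it had 43.6 and 14.7 CPM, on both sides of the HH5 values.

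**Figure D2:**
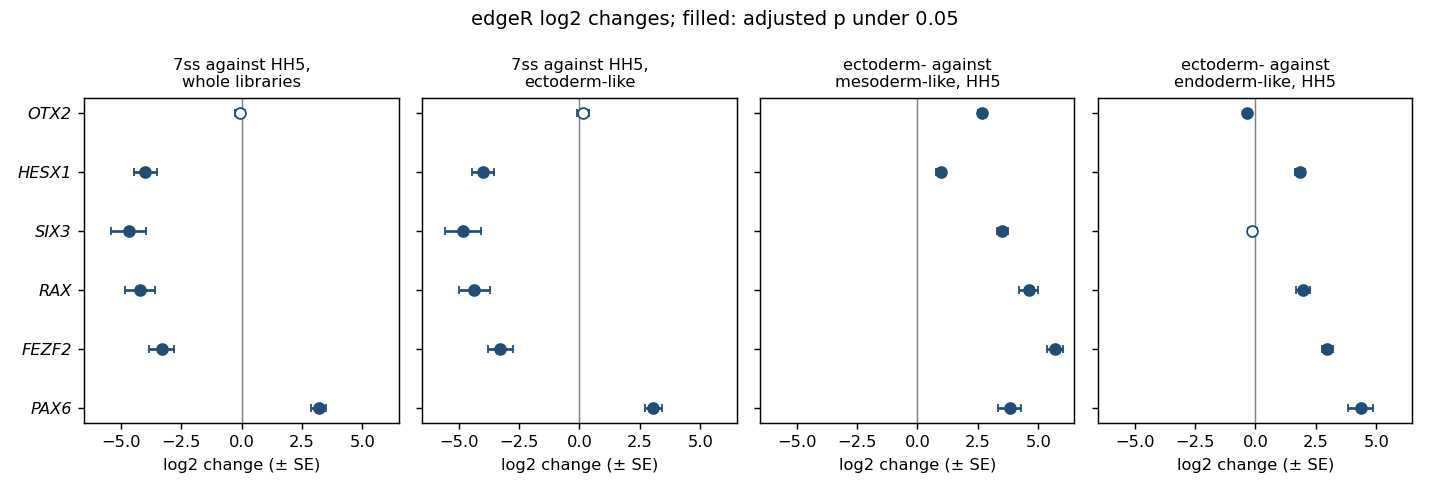
log2 changes from edgeR with their SE (horizontal axis) for the 6 genes (vertical axis) in 4 comparisons, 7ss against HH5 in whole libraries and in ectoderm-like cells, and ectoderm-like against mesoderm-like and endoderm-like cells at HH5; filled points have an adjusted p under 0.05. OTX2 is the only open point in the stage comparisons and SIX3 the only open point against endoderm-like cells.

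HH11 had a single library, so its values carry no test and their intervals cover counting error only. OTX2 had 63.6 CPM (95% exact Poisson interval 61.1 to 66.2) and PAX6 38.8 CPM (36.8 to 40.8). SIX3 had 14.5 CPM (13.3 to 15.8) and HESX1 6.75 CPM (5.94 to 7.64). RAX and FEZF2 were counted 18 times each, 0.49 CPM (0.29 to 0.77). HESX1, RAX, FEZF2 and PAX6 thus lay below both 7ss libraries and SIX3 above them, with OTX2 between them. In the ectoderm-like cells of HH11 OTX2 had 100.5 CPM, from 2630 cells, of which 2533 lay in 1 neural-like cluster led by PTN, EN2 and EN1 with 0 of 8 non-neural ectoderm markers at 20 CPM or more in the group. In the other libraries 2 to 5 of the 8 reached that level, so the HH11 group is not like theirs, and 6099 of its 8905 cells fell in clusters without a name.

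At HH5, OTX2 was found in the ectoderm-like and the endoderm-like cells at similar levels and was several-fold lower in mesoderm-like cells. The ectoderm-like cells had 58.3 and 91.5 CPM in replicates 1 and 2, the endoderm-like cells 74.0 and 112 CPM, and the mesoderm-like cells 8.52 and 17.0 CPM. In each library the endoderm-like value was the highest, and the mesoderm-like values overlapped with neither of the other layers. The ectoderm-like cells held 67.4% and 77.0% of the OTX2 UMIs of a library and 61.6% and 66.7% of all its UMIs. The endoderm-like cells held 25.8% and 18.7% of the OTX2 UMIs with 18.6% and 13.2% of all UMIs, and the mesoderm-like cells 2.47% and 4.27% with 15.4% and 19.9%. The layers were tested in 1 fit of 24 sums, from the 3 layers of the 8 libraries of the first 4 stages. It had 8 residual degrees of freedom. The SE and p-values of the HH5 contrasts thus rest on the spread over all 8 libraries, not on the 2 HH5 libraries alone. In that fit, across 11669 genes and with the library as a block, OTX2 was 6.28-fold higher in ectoderm-like than in mesoderm-like cells (log2 2.65, SE 0.13, edgeR adjusted p = 3.7e-14). It was 8.02-fold higher in endoderm-like than in mesoderm-like cells (log2 3.00, SE 0.14, adjusted p = 1.4e-14). It was 1.28-fold lower in ectoderm-like than in endoderm-like cells (log2 -0.35, SE 0.10, adjusted p = 0.0074). This last call was lost without HH5 replicate 1 (adjusted p = 0.360), at the finer clustering (0.374), without the block (0.610) and with layers set by marker scores (0.083).

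HESX1 was found in all 3 layers at HH5, with an order of its own. The ectoderm-like cells had 358 and 220 CPM, the mesoderm-like cells 168 and 127 CPM, and the endoderm-like cells 83.5 and 83.1 CPM. The layers did not overlap, and mesoderm-like cells were above endoderm-like cells in both libraries, the reverse of OTX2. Of the HESX1 UMIs 79.8% and 80.0% lay in ectoderm-like cells, 9.38% and 13.8% in mesoderm-like cells and 5.61% and 5.97% in endoderm-like cells. HESX1 was 1.94-fold higher in ectoderm-like than in mesoderm-like cells (log2 0.95, SE 0.20, edgeR adjusted p = 0.0005), 3.57-fold higher than in endoderm-like cells (log2 1.83, SE 0.21, adjusted p = 2.2e-07) and 1.84-fold lower in endoderm-like than in mesoderm-like cells (log2 -0.88, SE 0.22, adjusted p = 0.0049). The ectoderm against mesoderm call was lost with DESeq2 (adjusted p = 0.115), without the block (0.300) and without HH5 replicate 1 (0.083). The endoderm against mesoderm call was lost in the same fits and with layers set by marker scores.

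Free RNA from broken cells enters every droplet, so the levels were set beside those of the empty droplets of the same library, barcodes with at most 100 UMIs. There HESX1 had 206 and 161 CPM, SIX3 146 and 46.5 CPM, OTX2 28.3 and 33.9 CPM, RAX 20.7 and 4.04 CPM, FEZF2 14.8 and 14.2 CPM and PAX6 5.06 and 4.55 CPM. HESX1 was thus higher in empty droplets than in mesoderm-like cells (168 and 127 CPM) or endoderm-like cells (83.5 and 83.1 CPM). The values below take the ratios between genes from the empty droplets. In empty droplets HESX1 was 1.41 and 3.47 times SIX3, and in mesoderm-like cells 8.7 and 9.0 times SIX3. If all SIX3 of the mesoderm-like cells were free RNA, it would bring 27.1 and 48.9 CPM of HESX1, of the 168 and 127 CPM measured. In endoderm-like cells, if all FEZF2 were free RNA, it would bring 7.49 and 10.6 CPM of OTX2 against 74.0 and 112 CPM measured, and 38.8 and 14.5 CPM of SIX3 against 220 and 174 CPM. It would bring 54.7 and 50.2 CPM of HESX1 against 83.5 and 83.1 CPM. The same reckoning from PAX6, which had 6 and 1 UMIs there, would bring 20.4 and 26.1 CPM of HESX1. From SIX3 it would bring 310 and 604 CPM of HESX1, more than was measured. The share thus depends on the gene it is taken from, and how much of each level was free RNA was not tested. With a subtraction of 10% of each sum as free RNA, HESX1 stayed called in all 3 contrasts of HH5 and OTX2 in the same direction in each. That share takes off 20.6 and 16.1 CPM of HESX1. This is less than the 27.1 and 48.9 CPM reckoned from SIX3 in mesoderm-like cells. It is also less than the 54.7 and 50.2 CPM reckoned from FEZF2 in endoderm-like cells. Larger shares were not tested.

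SIX3 was found in both ectoderm-like and endoderm-like cells at HH5. The ectoderm-like cells had 272 and 103 CPM, the endoderm-like cells 220 and 174 CPM, and the mesoderm-like cells 19.2 and 14.1 CPM. The ectoderm-like and endoderm-like values overlapped, with ectoderm higher in replicate 1 and endoderm higher in replicate 2. Their difference was log2 -0.13 (SE 0.18, edgeR adjusted p = 0.633), and both were higher than mesoderm-like cells, by log2 3.51 (SE 0.24, adjusted p = 1.0e-11) and 3.65 (SE 0.24, adjusted p = 2.6e-11). With clusters of the HH5 cells alone, where the endoderm rests on replicate 1, SIX3 was higher in ectoderm-like than in endoderm-like cells (log2 0.55). Replicate 1 had that order at the main clustering too. That fit had 5 sums and 1 residual degree of freedom, and it holds no spread of this difference between libraries.

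RAX, FEZF2 and PAX6 were mainly in ectoderm-like cells at HH5, which held 87.6% and 88.9% of the RAX UMIs, 89.8% and 94.4% of the FEZF2 UMIs and 91.5% and 96.5% of the PAX6 UMIs. RAX had 36.1 and 9.29 CPM in ectoderm-like cells, 8.16 and 5.88 CPM in endoderm-like cells, and 1.5 and 0 CPM in mesoderm-like cells, where replicate 2 had no UMI. FEZF2 had 33.2 and 24.5 CPM, 3.91 and 4.41 CPM, and 0.40 and 1.46 CPM in the same order of layers. PAX6 had 11.4 and 7.98 CPM in ectoderm-like cells, and 0.49 to 0.80 CPM in the other layers, from 1 to 8 UMIs. Against endoderm-like cells the ectoderm-like cells were higher by log2 1.96 (SE 0.29) for RAX, 2.97 (SE 0.23) for FEZF2 and 4.35 (SE 0.51) for PAX6, with edgeR adjusted p of 6.4e-06 or less. For RAX these layers lay closer in replicate 2 (9.29 against 5.88 CPM, from 64 and 8 UMIs) than in replicate 1 (36.1 against 8.16 CPM).

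Against mesoderm-like cells all 6 genes were called higher in ectoderm-like cells at HH5, against 30.0% of all genes called in either direction. Against endoderm-like cells 5 of 6 were called, 4 higher and OTX2 lower, against 31.4%. In endoderm-like against mesoderm-like cells 5 of 6 were called, with HESX1 lower and OTX2, SIX3, RAX and FEZF2 higher, against 24.3%. Without the deeper HH5 replicate 1 the last pair of counts fell to 2 each.

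**Figure D3:**
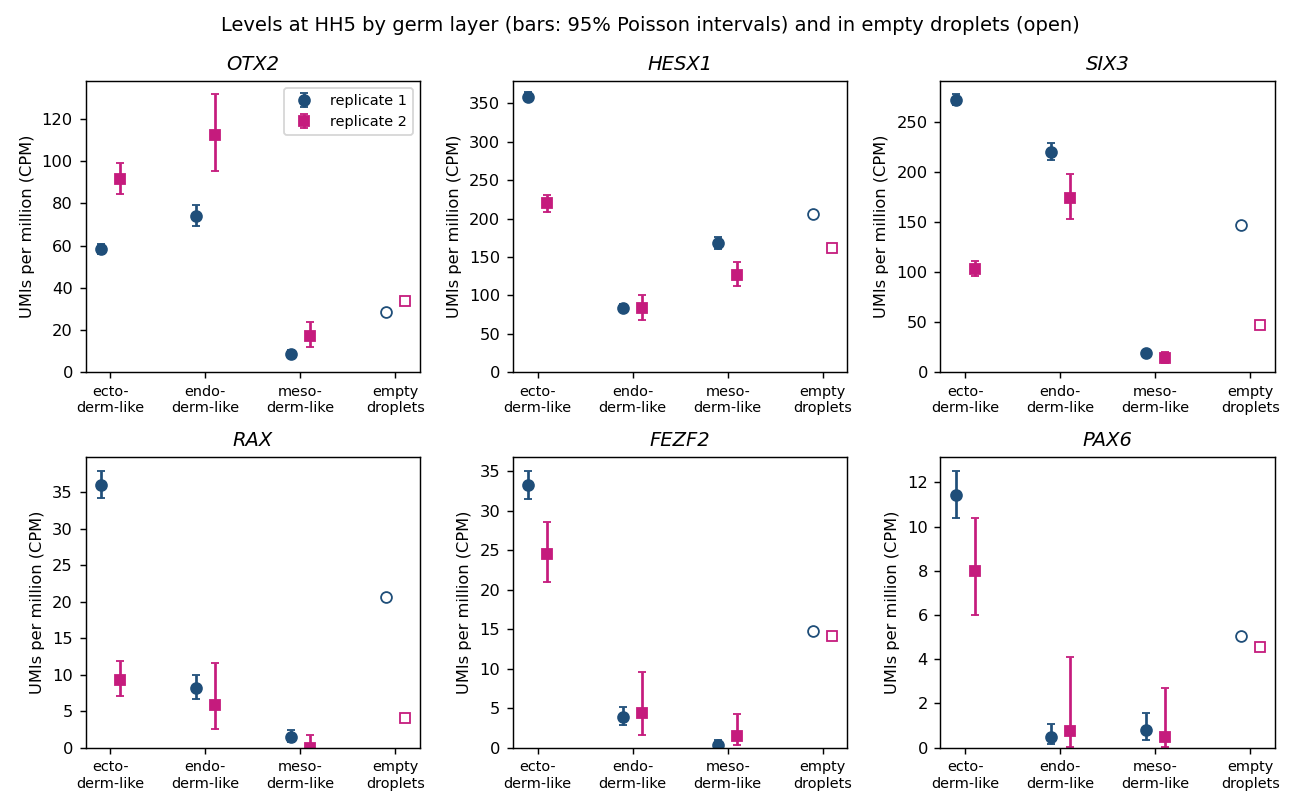
Level of each gene in CPM (vertical axis, from 0) in ectoderm-like, endoderm-like and mesoderm-like cells of the 2 HH5 libraries, with 95% Poisson intervals as bars, and in empty droplets (open symbols). OTX2 and SIX3 in endoderm-like cells are near or above their ectoderm-like levels, and HESX1 in mesoderm-like cells (168 and 127 CPM) lies above its endoderm-like level (83.5 and 83.1 CPM).

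Counted per cell, the order of the layers was the same. Each cell was thinned to 1000 UMIs, which left out 18.9% of the cells of HH5 replicate 1, nearly all of them outside the 3 layers, and 35.3% of those of replicate 2. OTX2 then had at least 1 UMI in 5.54% and 8.85% of ectoderm-like cells, 6.81% and 9.82% of endoderm-like cells, and 0.46% and 2.13% of mesoderm-like cells. HESX1 had a UMI in 26.6% and 18.4% of ectoderm-like, 14.5% and 11.3% of mesoderm-like and 6.87% and 6.95% of endoderm-like cells. For SIX3 the shares were 21.3% and 8.94% in ectoderm-like, 15.1% and 14.1% in endoderm-like and 2.24% and 1.28% in mesoderm-like cells. Without thinning, OTX2 had a UMI in 31.5% and 15.7% of ectoderm-like, 31.5% and 17.5% of endoderm-like and 6.15% and 3.18% of mesoderm-like cells. As a background, thinned endothelium-blood-like cells of 4ss replicate 1 had a UMI of HESX1 in 5.81% and of OTX2 in 1.16% of 86 cells, and in the 4 later libraries HESX1 had one in 0.68% to 2.15%. The OTX2 shares of mesoderm-like cells lay on both sides of the 4ss replicate 1 background, and the HESX1 shares of endoderm-like cells were just above it. In CPM the order for HESX1 was the reverse. The endothelium-blood-like cells of that library had 107 CPM, and the endoderm-like cells of HH5 83.5 and 83.1 CPM. Empty droplets had 139 CPM of HESX1 in 4ss replicate 1 against 206 and 161 CPM at HH5, so the background is of an unlike stage. HH5 itself had too few endothelium-blood-like cells for such a value.

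Within ectoderm-like cells of HH5 the genes were found in the same cells to different degrees. Of cells with a SIX3 UMI 43.7% and 36.2% also had one of HESX1, against 22.0% and 16.6% of cells without. Of cells with OTX2 27.8% and 13.2% had SIX3, against 20.9% and 8.53% of those without, and 32.2% and 22.8% had HESX1 against 26.3% and 17.9%. Of the 198 cells with RAX in replicate 1, 99 had HESX1, against 25.7% of the other cells, and of the 20 in replicate 2, 5 had it, against 18.3%. PAX6 was found with neither RAX nor FEZF2 in any of these thinned HH5 cells: of 69 cells with PAX6 in replicate 1 0 had RAX, against 3.77% of the other cells, and 0 had FEZF2, against 3.58%. Replicate 2 had 14 cells with PAX6. Shares this low leave room for few cells with both genes among so few cells. At 1ss a few cells had PAX6 with RAX or FEZF2, at shares below those of the cells without PAX6. Of 45 cells with PAX6 in replicate 1, 1 had RAX (2.22% against 6.41% of the others). FEZF2 was in 4 of them (8.89% against 13.5%). Of 55 in replicate 2, 2 had RAX (3.64% against 5.01%) and 2 had FEZF2 (3.64% against 6.98%). These shares were not tested, since cells of a library are not replicates.

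Clustering of the HH5 cells alone, again without the 6 genes, gave clusters that each came almost wholly from 1 library, so clusters of different libraries cannot be told apart from the libraries. In replicate 1 a cluster of 240 axial-like cells, led by POMC, CHRD and TBXT, had the highest SIX3 level of the clusters with 50 cells or more, 445 CPM, with 54.5 CPM of OTX2 and 138 CPM of HESX1. The endoderm-like cluster of replicate 1, 1499 cells led by TTR, FGB and APOA1, had 177 CPM of SIX3, 76.8 CPM of OTX2 and 68.1 CPM of HESX1. OTX2 was thus found in the endoderm-like cells of this library also with the axial-like cells apart. In replicate 2 the endoderm-like cluster held 7 cells, and 713 cells formed a cluster that was named axial-like, with CHRD, TBXT and FOXA1 among its leading genes. It had 115 CPM of OTX2, 177 CPM of SIX3 and 75.3 CPM of HESX1. In that library the endoderm and the axial mesendoderm could not be separated.

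The ectoderm-like clusters of replicate 1 differed among themselves. Their class names are not independent of the 6 genes, since any of these among a cluster's leading genes counted as neural. A cluster led by them could thus lose the non-neural-ectoderm name. Of 2 neural-like clusters, the one of 2213 cells had 62.1 CPM of OTX2, 393 CPM of HESX1, 329 CPM of SIX3 and 50.9 CPM of RAX. The other, of 1566 cells, had 64.3 CPM of OTX2, 360.1 CPM of HESX1, 254 CPM of SIX3 and 22.1 CPM of RAX. A further ectoderm-like cluster, of 1263 cells and not among the neural-like ones, had 57.8 CPM of OTX2 and 443 CPM of HESX1. It had 295 CPM of SIX3, 43.3 CPM of RAX and 10.7 CPM of PAX6. A non-neural-ectoderm-like cluster of 378 cells was led by FIBIN, UPK1B and the epidermal genes GRHL3 and KRT14. It was low in nearly all of the 6 genes, with 10.4 CPM of OTX2, 24.6 CPM of HESX1 and 6.30 CPM of SIX3. PAX6 was the exception, with 13.6 CPM in that cluster (95% exact Poisson interval 9.81 to 18.3) and 14.3 CPM (12.6 to 16.2) and 8.26 CPM (6.85 to 9.88) in the neural-like clusters. In replicate 2 most ectoderm-like cells, 2709, formed 1 cluster with 92.4 CPM of OTX2 and 201 CPM of HESX1, so no such contrast within the ectoderm could be seen there. The mesoderm-like clusters of the libraries had 172 and 126 CPM of HESX1 and 10.4 and 19.3 CPM of OTX2.

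**Figure D4:**
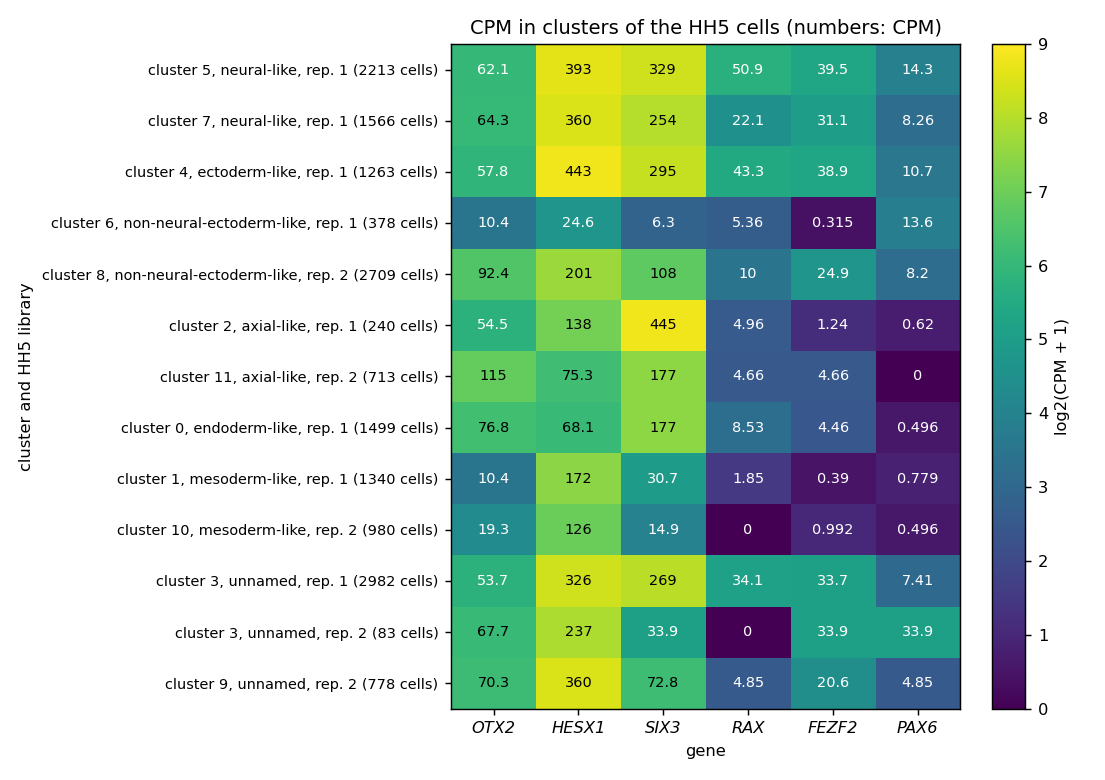
CPM of the 6 genes (columns) in clusters of the HH5 cells by library (rows, with the number of cells), coloured by log2(CPM + 1) with the CPM written in each field. SIX3 is highest in the axial-like cluster of replicate 1 (445 CPM), and the non-neural-ectoderm-like cluster of 378 cells has low OTX2, HESX1 and SIX3.

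At 1ss the order of the layers was the same for HESX1. SIX3 was higher in ectoderm-like than in endoderm-like cells of both libraries, an order that HH5 replicate 1 had as well. HESX1 had 685 and 407 CPM in ectoderm-like, 221 and 152 CPM in mesoderm-like and 101 and 79.8 CPM in endoderm-like cells. SIX3 had 447 and 268 CPM in ectoderm-like and 219 and 225 CPM in endoderm-like cells, which did not overlap, and 22.0 and 12.1 CPM in mesoderm-like cells. OTX2 had 81.2 and 80.1 CPM in ectoderm-like, 93.6 and 74.9 CPM in endoderm-like and 9.48 and 7.17 CPM in mesoderm-like cells. Ectoderm-like and endoderm-like cells overlapped for OTX2 (log2 -0.08, SE 0.11, edgeR adjusted p = 0.656). SIX3 was called higher in ectoderm-like than endoderm-like cells (log2 0.62, SE 0.18, edgeR adjusted p = 0.0128). Its change from HH5 to 1ss was not called different between these layers.

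All 6 genes were called higher in ectoderm-like than in mesoderm-like cells at 1ss, against 32.0% of all genes, with FEZF2 the farthest apart (log2 6.64, SE 0.26, edgeR adjusted p = 5.7e-16). Against endoderm-like cells 5 were called, all but OTX2, against 24.0%. Between endoderm-like and mesoderm-like cells 4 were called, HESX1 lower and OTX2, SIX3 and FEZF2 higher, against 19.1%, and the FEZF2 call (adjusted p = 0.043) rested on 3 to 12 UMIs per library. Of these calls 2 turned around under an alternative. With layers set by marker scores HESX1 was called higher in endoderm-like than in mesoderm-like cells (log2 0.37, adjusted p = 0.0402), and with 10% free RNA subtracted FEZF2 was at log2 -0.070 and not called.

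The difference between layers in the change from HH5 was tested in the same fit, in contrasts added after the values had been seen. From HH5 to 1ss edgeR and DESeq2 each called 0 of the 6 genes between mesoderm-like and ectoderm-like cells, against 1.49% of all genes, although OTX2 and SIX3 had an unadjusted p under 0.05. Between endoderm-like and ectoderm-like cells FEZF2 alone was called (log2 -1.85, SE 0.46, edgeR adjusted p = 0.0468), against 1.15%. FEZF2 in endoderm-like cells had 3.91 and 4.41 CPM at HH5 and 6.1 and 1.47 CPM at 1ss, while in ectoderm-like cells its 1ss libraries were above its HH5 libraries. It lost the call in 4 of the 8 fits without 1 library and with DESeq2 (log2 -2.04, adjusted p = 0.205), and with layers set by marker scores its direction turned around (log2 0.16, adjusted p = 0.957).

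By 7ss OTX2 had moved apart between layers. In mesoderm-like cells OTX2 was 5.42 and 6.75 CPM at 4ss and 4.95 and 5.99 CPM at 7ss, below both HH5 values of 8.52 and 17.0 CPM, while the ectoderm-like values of 74.8 and 81.9 CPM lay between those of HH5. The difference in change was log2 -1.31 (SE 0.20, edgeR adjusted p = 4.0e-05), and OTX2 and RAX were the 2 of 6 genes called, against 24.2% of all genes. The OTX2 call was kept in each of the 8 fits without 1 library (log2 -1.50 to -1.20) and lost without the library block (adjusted p = 0.11) and at the finer clustering (0.159). Free RNA at 10% of the UMIs would bring 2.83 and 3.39 CPM of OTX2 at HH5 and 2.65 and 3.00 CPM at 7ss. At 7ss that is a large part of the mesoderm-like values. For RAX the fitted difference of log2 3.71 (SE 0.84, adjusted p = 0.0022) rested on 0 to 15 UMIs per library in mesoderm-like cells, where RAX was 1.5 and 0 CPM at HH5 and 0.43 and 0.89 CPM at 7ss. The size of that value depends on the prior count of the fit. The mesoderm-like cells also lay in different clusters at these stages. At HH5 1299 of 1300 and 1007 of 1007 were in a cluster led by AGRP, ALX1 and TWIST1, and at 7ss 701 of 1226 and 615 of 874 were in one led by OLFML3, TBX22 and CLMP, with most of the rest in a cardiac-like cluster. The part of this shift in the OTX2 difference was not tested.

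SIX3 fell less in endoderm-like than in ectoderm-like cells. In endoderm-like cells it had 88.3 and 17.2 CPM at 4ss and 22.2 and 39.1 CPM at 7ss, where the ectoderm-like cells had 6.52 and 6.15 CPM. The difference in change from HH5 to 7ss was log2 2.00 (SE 0.38, edgeR adjusted p = 0.0005), the only one of 6 called, against 14.7% of all genes, over which the median shift was -0.10. The call was kept in each of the 8 fits without 1 library (log2 1.37 to 2.51) and lost without the library block (adjusted p = 0.471). There were 279 and 238 endoderm-like cells at 7ss, and axial cells lay within the endoderm-like group at HH5 but apart from it at 7ss, whose part in this difference was not tested. Axial-like cells formed a cluster of their own from 4ss replicate 2 on, and SIX3 there had 89.7 CPM at 4ss and 77.0 and 53.7 CPM at 7ss, from 147, 107 and 95 cells. OTX2 in endoderm-like cells stood at 58.0 and 73.9 CPM at 4ss and 111 and 129 CPM at 7ss.

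Neural-like and non-neural-ectoderm-like cells were set apart by a per-cell marker score, because at the main clustering resolution of 0.2 no library had clusters of both classes. All kept cells of any cluster were scored, and each took the class of its highest-scoring list if that score was positive. There was no list for neural crest, so such cells had no class of their own. At 7ss the ectoderm-like cells had 4 and 5 of 6 neural crest markers at 20 CPM or more. Such classes are ranges of a score and not cell types. A cell was near a cut if its score lay within 0.2 units of the next class or of the limit for having a class. Between 23.2% and 40.2% of neural-like and between 11.2% and 26.9% of non-neural-ectoderm-like cells of a library were near a cut. Averaged over the first 4 stages, RAX was 7.00-fold higher in neural-like cells (log2 2.81, SE 0.21, edgeR adjusted p = 5.2e-07) and FEZF2 4.67-fold higher (log2 2.22, SE 0.24, adjusted p = 1.0e-05). OTX2 was 1.47-fold higher (log2 0.56, SE 0.09, adjusted p = 0.0003), and PAX6 2.21-fold lower (log2 -1.14, SE 0.18, adjusted p = 0.0002). HESX1 was 1.51-fold higher (log2 0.60, SE 0.19, adjusted p = 0.0239), a call lost in 5 of the 8 fits without 1 library and with DESeq2. SIX3 was not called on average (log2 -0.01, SE 0.32, adjusted p = 0.992). The 5 calls stand against 38.0% of 11198 genes.

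The order of the classes was not the same at every stage for SIX3 and HESX1, so the class difference was also fitted at HH5 and at 7ss, an addition made after the values had been seen. At HH5 SIX3 had 344 and 136 CPM in neural-like and 201 and 76.5 CPM in non-neural-ectoderm-like cells, with neural-like higher in each library. At 7ss it had 1.44 and 0.95 CPM in neural-like and 9.69 and 15.7 CPM in non-neural-ectoderm-like cells, an order turned around in both libraries. At HH11 the values were 2.61 and 43.0 CPM. HESX1 turned around in the same way, from 475 and 266 CPM against 228 and 128 CPM at HH5 to 11.6 and 13.4 CPM against 16.9 and 24.6 CPM at 7ss. At HH5 all 6 genes were called between the classes, against 13.3% of genes, PAX6 lower in neural-like cells and the other 5 higher. At 7ss all 6 were called as well, against 33.8%, with SIX3 (log2 -3.46, SE 0.32), HESX1 (log2 -0.77, SE 0.14) and PAX6 (log2 -0.77, SE 0.15) lower in neural-like cells. Neural-like cells of 7ss had a median of 2211 and 2495 UMIs and non-neural-ectoderm-like cells 4561 and 5028, whose part in these differences was not tested.

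The difference between the stages was called for 3 of the 6 genes, against 10.6% of all genes. For SIX3 it was log2 -4.19 (SE 0.34, edgeR adjusted p = 5.7e-08) and for HESX1 log2 -1.78 (SE 0.17, adjusted p = 5.0e-07). Both kept their direction and their call in each of the 8 fits without 1 library, and lost the call without the library block (adjusted p = 0.304 and 0.777). FEZF2, the third, had 53.4 and 33.8 CPM in neural-like and 17.0 and 9.80 CPM in non-neural-ectoderm-like cells at HH5. At 7ss it had 2.67 and 1.87 CPM in neural-like cells and no UMI in non-neural-ectoderm-like cells of either library, at least 14.3-fold higher in neural-like cells when the group without UMIs is set to 3 UMIs. Its fitted value, log2 6.05 (SE 1.41), depends on the prior count and is no measure of size, and its call was lost in 2 of the 8 fits without 1 library.

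Between these score classes PAX6 kept the same order in all 9 libraries, and OTX2 in all but 1ss replicate 1, where neural-like cells had 83.5 CPM and non-neural-ectoderm-like cells 85.1 CPM. OTX2 had 72.7 and 94.99 CPM in neural-like and 46.5 and 71.6 CPM in non-neural-ectoderm-like cells at HH5, and 83.8 and 91.9 CPM against 48.3 and 43.3 CPM at 7ss. PAX6 had 4.74 and 4.55 CPM in neural-like against 19.9 and 12.8 CPM in non-neural-ectoderm-like cells at HH5, and 68.9 and 71.0 CPM against 113 and 119 CPM at 7ss. Between the clusters of HH5 replicate 1 the order depended on the cluster, since the non-neural-ectoderm-like cluster had 13.6 CPM, near the 14.3 CPM of the larger neural-like cluster and above the 8.26 CPM of the smaller one. At HH11 PAX6 was 27.2 CPM in neural-like and 123 CPM in non-neural-ectoderm-like cells. The rise of PAX6 between HH5 and 7ss was thus seen in both classes.

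**Figure D5:**
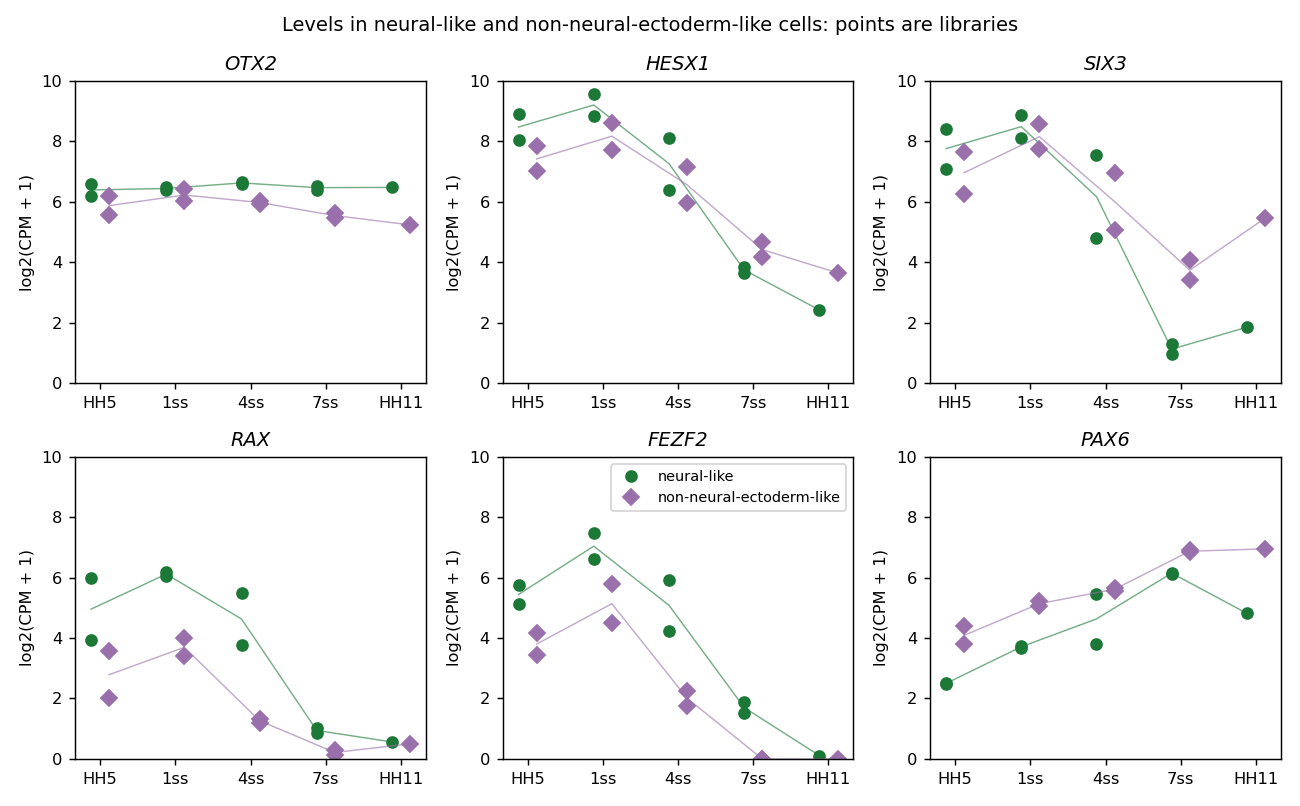
Level of each gene as log2(CPM + 1) (vertical axis) by stage (horizontal axis) in neural-like (circles) and non-neural-ectoderm-like cells (diamonds), with 1 point per library and lines through the stage means. For SIX3 the neural-like point is the higher of the 2 classes within each HH5 library (344 against 201 CPM and 136 against 76.5 CPM) and the lower within each 7ss library, and for PAX6 the non-neural-ectoderm-like points are higher at each stage.

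Other genes of head patterning were counted from lists chosen with earlier results known. Of the anterior neural partners 19 of 21 were in the files and 17 were tested in whole libraries. At 7ss against HH5 3 were called higher and 3 lower, against 11.8% of all genes, with a median of log2 -0.09 beside -0.02 over all genes. LHX5, a forebrain homeodomain gene, fell with the 4 members, from 4.10 and 6.21 CPM to 0.72 and 0.41 CPM (log2 -3.13, SE 0.43, edgeR adjusted p = 0.0033). OTX1, the relative of OTX2, went from 38.0 and 49.4 CPM to 16.1 and 17.1 CPM (log2 -1.37, SE 0.39, adjusted p = 0.0471). EMX2, a gene of the dorsal forebrain, went from 0.88 and 0.99 CPM to 8.55 and 9.52 CPM (log2 3.31, SE 0.34, adjusted p = 0.0012). At 1ss ZIC1, a zinc finger gene of the neural plate, was the only partner called (log2 2.68, SE 0.35, adjusted p = 0.0416), from 7.46 and 4.05 CPM to 47.0 and 31.1 CPM.

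Of 12 genes tested that mark the midbrain, its boundaries and more posterior levels, 5 were higher and 1 lower at 7ss in whole libraries, against 11.8% of all genes, with a median of log2 0.20 beside -0.02. EN1, a homeodomain gene of the midbrain and the isthmus, had 1.02 and 0.36 CPM at HH5 and 26.1 and 77.6 CPM at 7ss (log2 5.97, SE 1.24, edgeR adjusted p = 0.0184). PAX2, which acts at the midbrain-hindbrain boundary, had 0.71 and 0.81 CPM at HH5 and 14.1 and 39.0 CPM at 7ss (log2 5.15, SE 0.61, adjusted p = 0.0019). WNT1, a signal of the dorsal midbrain, had 1.61 and 1.98 CPM and 12.4 and 22.6 CPM (log2 3.32, SE 0.38, adjusted p = 0.0019). The gene that fell, named after its values were seen, was GBX2, a homeodomain gene of the anterior hindbrain, with 20.7 and 39.98 CPM at HH5 and 11.7 and 12.1 CPM at 7ss (log2 -1.32, SE 0.35, adjusted p = 0.0385). EN1, PAX2 and WNT1 thus rose in the same libraries in which HESX1, SIX3, RAX and FEZF2 fell, and where the front edge of the slice lay at each stage was not tested.

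Of 13 secreted antagonists and axial genes, 5 fell at 7ss in whole libraries and no other was called, against 11.8% of all genes, with a median of log2 -1.42 beside -0.02. FST, which binds activin and BMP ligands, had 68.5 and 82.5 CPM at HH5 and 7.27 and 8.33 CPM at 7ss (log2 -3.26, SE 0.51, edgeR adjusted p = 0.0057). SFRP1, a Wnt antagonist, had 142 and 189 CPM and 47.5 and 49.2 CPM (log2 -1.75, SE 0.22, adjusted p = 0.0023). In ectoderm-like cells 3 of the 13 rose and 3 fell, against 13.2% of all genes, with SFRP1 and FST among those that fell.

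Between the layers of HH5 the partners are a description, because all genes but the 6 could shape the clusters. HHEX, CER1, CHRD, SHH, GSC and ZIC2 were themselves markers used for the names. The anterior neural partners, ZIC1 and NKX2-1 among them, and the midbrain, boundary and posterior list also counted as ectoderm where they led a cluster. DKK1, a Wnt antagonist, had 2.01 and 0.73 CPM in ectoderm-like and 29.7 and 25.0 CPM in endoderm-like cells. NKX2-1, a homeodomain gene of the ventral forebrain and the foregut, had 1.61 and 0.58 CPM in ectoderm-like and 29.6 and 23.5 CPM in endoderm-like cells. ZIC1 was in ectoderm-like cells, with 10.9 and 5.66 CPM against 0.17 and 0 CPM in endoderm-like cells. Of the 12 anterior partners tested, 5 were higher and 3 lower in ectoderm-like than in endoderm-like cells, against 31.4% of all genes.

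Over 53 sums of a library and cluster in 9 libraries, Pearson's r of log2(CPM + 1) was taken as a description of likeness, among 7017 genes. The sums share libraries and clusters and differ in depth, so the values carry no test. RAX and FEZF2 were the most alike of the 6 (r = 0.945), and each was the other's nearest gene. FEZF2 was next nearest to YEATS4 (0.876) and PLPP1 (0.860), and RAX to PLPP1 and NOXO1 (0.842 and 0.841). HESX1 was nearest to CYP26A1, which encodes an enzyme that breaks down retinoic acid (0.894), then to TIMM10 (0.863) and NOXO1 (0.856). SIX3 was nearest to PGM1 (0.799), EPCAM (0.749) and MAP7 (0.742), OTX2 to PAK1 (0.885), CMTM8 (0.842) and FABP5 (0.826), and PAX6 to TFAP2A (0.850), LEUTX (0.847) and PAX7 (0.845). Among the 15 pairs of the 6 genes, HESX1 and PAX6 had the only negative value (r = -0.13).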

How the data were processed

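Single-cell RNA sequencing was measured in 9 chick libraries. Per the submitters' processing notes, reads were counted with Cell Ranger 6.1.1. The headers of the filtered matrices name that version for HH5 to 7ss and an older one for HH11, the headers of the raw matrices an older one still, and the study's methods a later one, and which was used was not settled. The methods, which cover HH5 to 7ss, name the genome GRCg6a with a custom annotation of extended 3′ ends, and the labels name the same genome for HH11. The deposited filtered and raw matrices hold UMI counts per gene and barcode, as the authors made them, with no normalization. The removal of free RNA and doublets that the study describes is not in these counts.

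Whole libraries were summed over all barcodes. For cell groups, barcodes with 200 to 4000 genes and at most 40% mitochondrial UMIs were kept. The study's methods give the mitochondrial limit with a percent sign at a value that would remove nearly all cells, and it was read here as a fraction. Doublets were scored with scrublet in scanpy 1.11.5. The highest scores were removed up to a share fixed in advance, 0.8% for every 1000 barcodes of a library. That took 12697 barcodes, from 245 of 5535 in HH5 replicate 2 to 4414 of 23489 in 4ss replicate 2. With all limits, 92708 of 107749 barcodes were left. Cells were clustered with 2000 variable genes, from which the 6 genes were left out, 15 principal components, 20 neighbours and the Leiden method (igraph 0.11.9) at resolution 0.2. Clusters were named from marker lists, and those with fewer than 3 detected markers or conflicting leading genes stayed unnamed. Among the leading genes of a cluster, the anterior neural and the midbrain, boundary and posterior lists counted as ectoderm. When ectoderm classes were named, genes of these lists and the 6 genes counted as neural. Neural-like and non-neural-ectoderm-like cells were to be compared by cluster. Since no library held clusters of both at this resolution, a marker score per cell, taken over all kept cells, was used instead. Sums of at least 50 cells were used.

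Counts were tested with edgeR 4.0.16 in R 4.3.3 (TMM, quasi-likelihood test, filter on low counts, Benjamini-Hochberg adjustment over all genes tested, threshold 0.05), with the library as a block where groups of cells of the same libraries were compared. SE is the log2 change divided by the root of the F statistic. Alternatives were DESeq2 1.42.0 and its size factors, no filter, other clusterings, thinning to 1000 or 2000 UMIs, subtraction of 10% free RNA, a replicate block and leaving out each library. The fits, apart from the class fit by stage, were also run on simulated counts. These were drawn without a library effect, so they cannot show how the library block performs. Taken over all genes that passed the filter, same-numbered libraries of different stages did not deviate together (r from -0.113 to 0.056 over 6 pairs of stages). The main stage fits thus left them unpaired. For HESX1, SIX3, RAX and FEZF2, replicate 1 was the higher at HH5, 1ss and 4ss. Whether replicate numbers pair the libraries for these genes was not tested. Nothing says that pools were independent beyond being separate samples, so p-values measure only the spread between these libraries. Where the library was a block, that is the spread between libraries of the difference between groups of cells. Each main fit took the libraries of the first 4 stages together, so a contrast at a single stage shares its spread with the other stages. Intervals and floors cover counting error only.

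The 6 genes and the lists of other genes were chosen with earlier results of these data known. All 6 are named. Of each list, at most 4 genes called in a contrast with the largest change and at least 5 CPM in the higher group were eligible to be named. For likeness, the 3 nearest genes with at least 20 CPM in 1 sum are named.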

Additional observations from a re-analysis of the deposited data

Results flagged for a closer look

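The change from HH5 to 7ss, or to 1ss, differed between cell groups in 7 cases by a test of the difference itself, all from contrasts added after the values had been seen. Between mesoderm-like and ectoderm-like cells the change to 7ss differed for OTX2 by log2 -1.31 and for RAX by log2 3.71. Between endoderm-like and ectoderm-like cells the change to 1ss differed for FEZF2 by log2 -1.85, and the change to 7ss for SIX3 by log2 2.00. Between neural-like and non-neural-ectoderm-like cells the change to 7ss differed for HESX1 by log2 -1.78, for SIX3 by log2 -4.19 and for FEZF2 by log2 6.05. The RAX and FEZF2 values rest on groups with few or no UMIs.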

How the results depend on the processing

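Of 1836 results of single genes under alternatives, 1625 kept their direction and their side of the threshold, 97 lost and 39 gained the call, and 70 changed sign with neither value called. Reversals numbered 5. With clusters of HH5 cells alone, where the endoderm rests on replicate 1, SIX3 was higher in ectoderm-like than in endoderm-like cells (log2 0.55). That is also the order of replicate 1 at the main clustering. With 10% free RNA subtracted, FEZF2 in endoderm-like against mesoderm-like cells at 1ss was log2 -0.070, with no error that the fit could estimate. With marker scores, HESX1 in that contrast was log2 0.37, and the FEZF2 change in endoderm-like less ectoderm-like cells was log2 0.16 at 1ss and 2.59 at 7ss. The causes were not tested.

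Of the 6 genes, whole libraries gave 1 call at 1ss with DESeq2, 0 to 3 at 4ss and 2 to 5 at 7ss over the fits without 1 library, and 1 at 7ss with the term for the library split. In ectoderm-like cells DESeq2 and no filter gave 1 call each at 1ss and at 4ss, the fits without 1 library 0 to 3 at 4ss, and the split term 1 at 4ss and 1 at 7ss. With the replicate block the calls in whole libraries stayed at 0, 1 and 5 and in ectoderm-like cells at 0, 0 and 5, and it changed no call of a member. At HH5, ectoderm-like against endoderm-like cells had 2 to 5 calls without 1 library, 3 without the library block and 3 with marker scores. Endoderm-like against mesoderm-like cells had 2 to 5 calls at HH5 without 1 library, 2 without the block and 2 with marker scores, and at 1ss 2 to 4 and 2. Shares of cells with a UMI at HH5 rose with depth. From 1000 to 2000 UMIs and without thinning, OTX2 went from 7.19% to 13.3% and 23.6% in ectoderm-like, from 8.32% to 15.05% and 24.5% in endoderm-like, and from 1.30% to 4.67% without thinning in mesoderm-like cells. HESX1 went from 22.5% to 36.9% and 47.0%, from 6.91% to 11.3% and 16.9%, and from 12.9% to 22.2% and 32.8%. SIX3 went from 15.1% to 24.0% and 33.1%, from 14.6% to 24.3% and 30.3%, and from 1.76% to 2.57% and 6.52%.

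Over all genes, calls at 1ss, 4ss and 7ss numbered 10 (0 to 165 over the alternatives), 130 (45 to 1147) and 1543 (93 to 3167) in whole libraries, and 5 (0 to 109), 75 (14 to 1187) and 1606 (105 to 3122) in ectoderm-like cells. At HH5 ectoderm against mesoderm gave 3503 (1167 to 4462), ectoderm against endoderm 3661 (898 to 4581) and endoderm against mesoderm 2830 (407 to 3720), and the same contrasts at 1ss 3735 (1373 to 4352), 2805 (1004 to 3373) and 2227 (615 to 2628). Neural-like against non-neural-ectoderm-like cells gave 4256 (1736 to 4300). For the added contrasts the counts were 174 (0 to 458) and 2829 (277 to 3748) for mesoderm less ectoderm at 1ss and 7ss, 134 (2 to 325) and 1716 (282 to 2383) for endoderm less ectoderm, and 1186 (22 to 1640), 1484 (124 to 1908) and 3781 (618 to 4397) for the class difference between stages, at HH5 and at 7ss. The layers with doublets kept could not be fitted, because endoderm and mesoderm merged, and the class comparison was not run with doublets kept.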
